A study of Homo sapiens with 36 samples.

Results

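In BT549 cells, 520 chromatin regions that were opened by dexamethasone (DEX) were still called as accessible in at least 1 library when the ATPases of the SWI/SNF remodeling complex were inhibited with BRM014. BT549 is a mesenchymal-like, triple-negative breast cancer cell line, and DEX is a synthetic ligand of the glucocorticoid receptor. The regions were found by merging overlapping ATAC-seq peaks of 16 libraries into 189959 regions and keeping those held by 4 of 4 DEX + DMSO libraries, by 0 of 4 DMSO libraries and by at least 1 of 4 DEX + BRM014 libraries, where a library holds a region when any of its peaks overlaps it by at least 1 bp. The members were thus chosen by the presence of peaks in these 12 libraries. These persisting regions made up 20.6% of the 2526 regions opened by DEX (95% exact binomial interval 19.0 to 22.2%, covering counting error only). The share was 32.7% when only the best peaks were used, the same number in each library, and 13.1% when a peak had to overlap at least 50% of the merged region. The other 2006, held by 0 of 4 DEX + BRM014 libraries, are called blocked regions here. The regions opened by DEX were 1.33% of all regions. Because the DEX + BRM014, DEX + DMSO and DMSO libraries chose the members, values from those libraries are given as a description without a test.

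ATAC-seq uses a transposase that inserts adapters into open chromatin, so that a peak marks an accessible stretch. The DEX + BRM014 group received 500 nM DEX and 10 µM BRM014 for 4 h, the BRM014 group received 10 µM BRM014 for 4 h, the DEX + DMSO group received 500 nM DEX for 4 h with the solvent of the inhibitor, and the DMSO group received the solvent, with 4 libraries each. The labels do not say whether DEX and BRM014 were added together, so persisting means here only that a peak was called under both. In another experiment, cells treated with siRNA against the transcription factor GATA6 for 72 h (siGATA6) or with control siRNA (siCtl) received 500 nM DEX for 2 h or vehicle, with 3 libraries for each of the 4 groups. In the remaining experiment, cells received siRNA against both SWI/SNF ATPases, BRG1 and BRM (siBRG1 + siBRM), or siCtl, with 4 libraries each and no DEX named in the labels. All 36 libraries came from the unedited line, and the titles number them as biological replicates. How completely the siRNAs or the inhibitor removed their targets was not measured in the data used here.

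The libraries held 37184 to 131423 peaks on chromosomes 1 to 22 and X, and read depth is not known from peak lists. Groups under SWI/SNF inhibition or knockdown had fewer peaks: 49906 to 64198 in DEX + BRM014 and 41026 to 60995 in BRM014, against 94777 to 103956 in DEX + DMSO and 88348 to 98220 in DMSO libraries. The siBRG1 + siBRM libraries had 37184 to 66607 peaks and their siCtl libraries 81639 to 87609. All 4 DMSO libraries had a peak within 1 kb of an end of VIM, ZEB1, CDH2 and CAV1, genes active in mesenchymal cells, and 0 of 4 had one at ESRP1, an epithelial splicing factor, ESR1, the estrogen receptor, or CDH5, an endothelial cadherin. Markers that went against the cell type were PTPRC, a leukocyte gene with a peak in 4 of 4 libraries, EPCAM with a peak in 2 and GATA3 with a peak in 1. NR3C1, which encodes the glucocorticoid receptor, had a peak at its annotated ends in 0 of 4 libraries. A peak at a gene end is not a measure of expression.

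The glucocorticoid receptor is a ligand-activated transcription factor that moves to the nucleus when it binds its hormone and then binds enhancers, where it raises or lowers transcription of nearby genes. SWI/SNF complexes slide or evict nucleosomes with the energy of ATP hydrolysis by BRG1 (SMARCA4) or BRM (SMARCA2), and the receptor is known to recruit them. BRM014 blocks the ATPase activity of both. Whether a receptor-opened site needs this activity is the question that the 16 libraries with DEX and BRM014 address.

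Among the 520 persisting regions, 13 (2.50%) overlapped an annotated promoter, against 23 of 2006 blocked regions (1.15%). Of these 13, the 5 that at 2 h were held by 3 of 3 DEX libraries and 0 of 3 vehicle libraries with siCtl are shown, since in them the DNA opened by DEX lies directly before a gene start. Each sequence is the 250 bases before the annotated start on the strand of the gene, from RefSeq (GRCh38.p14), and capitals mark the bases inside the persisting region.
LINC02692: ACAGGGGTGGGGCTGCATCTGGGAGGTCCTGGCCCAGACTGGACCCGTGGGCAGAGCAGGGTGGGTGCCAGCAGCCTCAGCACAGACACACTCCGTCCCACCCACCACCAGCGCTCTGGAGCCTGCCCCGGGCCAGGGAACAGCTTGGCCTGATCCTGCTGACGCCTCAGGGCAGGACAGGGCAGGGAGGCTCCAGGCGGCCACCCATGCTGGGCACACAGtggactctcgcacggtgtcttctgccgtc
GPBAR1: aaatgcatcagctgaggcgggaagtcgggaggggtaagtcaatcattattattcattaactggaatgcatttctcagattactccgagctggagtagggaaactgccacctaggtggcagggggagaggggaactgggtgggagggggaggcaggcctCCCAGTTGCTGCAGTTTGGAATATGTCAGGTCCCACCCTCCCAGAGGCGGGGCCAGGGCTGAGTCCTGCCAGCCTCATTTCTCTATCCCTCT
EDN2: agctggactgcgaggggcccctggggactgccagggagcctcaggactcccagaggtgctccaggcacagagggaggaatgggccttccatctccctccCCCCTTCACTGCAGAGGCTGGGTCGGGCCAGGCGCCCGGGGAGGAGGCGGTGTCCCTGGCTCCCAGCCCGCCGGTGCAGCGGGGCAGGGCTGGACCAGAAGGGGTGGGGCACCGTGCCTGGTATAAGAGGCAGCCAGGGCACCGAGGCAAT
LOC102724948: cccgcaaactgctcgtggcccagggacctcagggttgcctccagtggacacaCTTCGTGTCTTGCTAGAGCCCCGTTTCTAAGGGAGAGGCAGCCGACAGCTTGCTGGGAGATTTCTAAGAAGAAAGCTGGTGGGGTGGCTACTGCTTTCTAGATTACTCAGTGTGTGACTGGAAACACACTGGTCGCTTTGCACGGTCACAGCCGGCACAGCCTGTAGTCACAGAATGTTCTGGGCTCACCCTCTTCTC
LOC102724082: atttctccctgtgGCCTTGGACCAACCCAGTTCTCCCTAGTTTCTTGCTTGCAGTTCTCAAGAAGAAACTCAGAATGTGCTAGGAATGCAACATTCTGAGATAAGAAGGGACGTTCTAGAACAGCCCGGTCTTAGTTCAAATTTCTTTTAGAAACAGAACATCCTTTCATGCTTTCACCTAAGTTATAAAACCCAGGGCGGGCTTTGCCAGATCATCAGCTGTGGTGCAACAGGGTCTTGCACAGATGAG

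LINC02692, a long noncoding RNA gene on the plus strand of chr9:136969162-136969411, lay in a region held by 4 of 4 DEX + BRM014 libraries, and 221 of its 250 printed bases were inside the region. The stretches of GPBAR1, which encodes a bile acid receptor, at chr2:218260765-218261014 on the plus strand, and of EDN2, which encodes the peptide endothelin-2, at chr1:41484684-41484933 on the minus strand, overlapped regions held by 2 and 1 DEX + BRM014 libraries. Those of LOC102724948 at chr2:20540168-20540417 and LOC102724082 at chr10:19457475-19457724, both on the minus strand, overlapped regions held by 1 library. Motifs were searched on both strands. None of the 5 stretches held the full receptor motif, the core ACANNNTGT flanked on each side by any base and then by G before and C after it, which occurs in 0.329% of 34959 annotated stretches of the same length. The core by itself, which lies inside that motif, occurs in 4.60% of all stretches and was found 2 times in LOC102724948, as ACAGCCTGT and ACAGAATGT, both in capitals. The TEAD motif GGAATG (11.9% of all stretches) was found in EDN2, GPBAR1 and LOC102724082, inside the region only in LOC102724082. The GATA motif AGATAA (9.18%) was found in LOC102724082 and not in the other 4. The AP-1 motif TGANTCA (6.54%), the forkhead motif TGTTTAC (2.98%) and the C/EBP motif TTGCNNAA (9.04%) had no match in any of the 5. The region at LOC102724082 was held by 3 of 3 siCtl DEX and by 0 of 3 siGATA6 DEX libraries. This pattern was found at 4 of 520 persisting regions (0.77%) and at 33 of 2006 blocked regions (1.65%). The reverse, 3 of 3 siGATA6 DEX and 0 of 3 siCtl DEX libraries, was found at 0 and at 6. The share over all regions was not counted, so nothing is read from these counts. A link to the GATA motif was not tested. These 4 regions lay nearest to RERG, H4C14, MALRD1 and LY6K and were named after their values were seen.

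With all deposited peaks, most members were held by some of the DEX + BRM014 libraries and not by all. Of the 520 members, 278 were held by 1 DEX + BRM014 library, 117 by 2, 66 by 3 and 59 by 4, so that the regions held in every replicate were 2.34% of all regions opened by DEX. DEX + BRM014 replicates 1, 2, 3 and 4 held 336, 263, 190 and 157 members, and their total numbers of peaks were 64198, 56993, 50979 and 49906, the same order. Replicate 1 alone accounted for 124 of the 278 members held by a lone library, against 74, 41 and 39 for replicates 2, 3 and 4. With the 41026 best peaks of each library, the split was different: of 300 persisting and 618 blocked regions chosen in that way, 116 were held by 4 DEX + BRM014 libraries, 48 by 3, 55 by 2 and 81 by 1. How far members were found in a replicate that had no say in choosing them varied between replicates: of the regions chosen with the other 3 libraries, replicate 1 held 53.5%, replicate 2 held 42.4%, replicate 3 held 31.1% and replicate 4 held 24.5%. Over all 189959 regions the same replicates held 32.1, 28.3, 25.3 and 24.8%, so that the share of replicate 4 was no higher than over all regions, and the BRM014 libraries without DEX held on average 7.12 to 8.21% of the same 4 sets. Of regions held by all 3 other replicates, the left-out one held 93.7, 93.7, 74.7 and 60.8%.

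On the other side of the rule, 358 regions held by 4 DEX + DMSO libraries and at least 1 DEX + BRM014 library fell out because 1 of 4 DMSO libraries also held them, and 51 of these were held by 4 DEX + BRM014 libraries. A further 408 had 3 rather than 4 DEX + DMSO libraries with 0 DMSO libraries. There were 13200 regions held by 1 or more DEX + BRM014 libraries and by no DEX + DMSO and no DMSO library, of which 58 were held by all 4.

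Persisting regions were somewhat stronger with DEX than blocked ones. The authors' fold enrichment of a peak is the summit signal over the local background of its own library, and it is used only to describe peaks within a list. The median fold of persisting regions in DEX + DMSO replicates 1 to 4 was 7.28, 7.09, 7.10 and 6.73 (mean 7.05 ± 0.23 SD, n = 4), and that of blocked regions averaged 6.24 ± 0.16 (SD, n = 4). By grade, the median of the mean fold over the 4 DEX + DMSO libraries was 7.38 in regions held by 4 DEX + BRM014 libraries, 7.73 by 3, 6.65 by 2, 6.87 by 1 and 6.21 by 0. The median percentile from the top of the DEX + DMSO lists, where 0 is the strongest peak, was 48.0, 53.1, 57.3, 58.4 and 65.7 in the same order. The grades overlap widely, since regions held by 4 ranged over folds of 3.38 to 22.3 and blocked regions over 2.66 to 24.2. The member with the highest fold, 41.6, was held by only 1 DEX + BRM014 library.

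**Figure D1:**
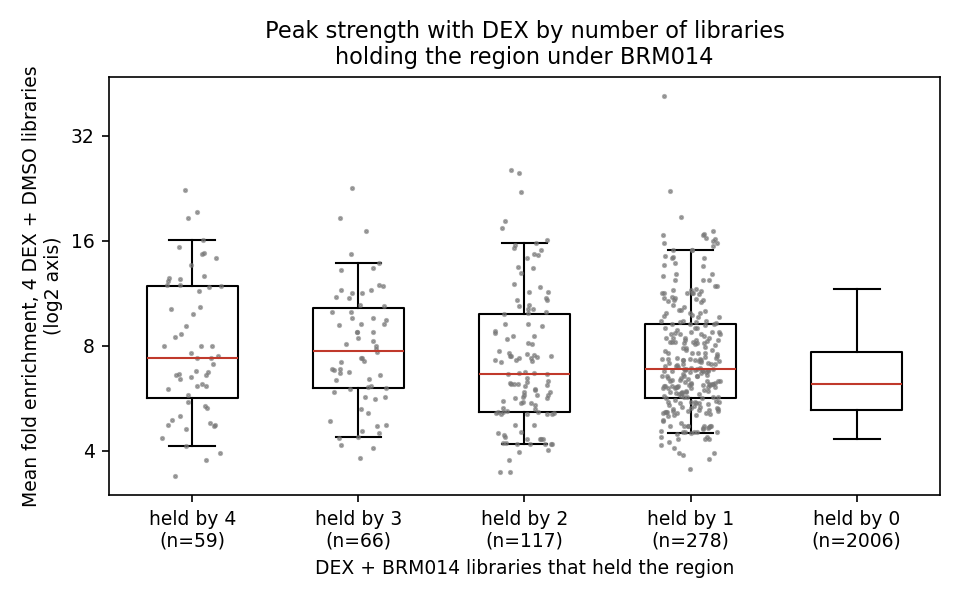
Mean fold enrichment over the 4 DEX + DMSO libraries (vertical log2 axis) by number of DEX + BRM014 libraries that held the region. Boxes give the median and quartiles, whiskers the 5th and 95th percentiles and points single persisting regions, and the medians of 7.38 for regions held by 4 and 6.21 for those held by 0 lie well inside each other's spread.

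At like strength with DEX, regions opened by DEX were held under the inhibitor in a smaller share than regions that were open all along. At least 1 DEX + BRM014 library held 20.6% of the regions opened by DEX, against 79.6% of 56702 constant regions, which all 4 DEX + DMSO and all 4 DMSO libraries held. The opened regions were weaker, with a median percentile of 64.2 against 30.4 in constant regions. Within the 20th to 30th percentile, 47.3% of 93 regions opened by DEX were held (95% exact binomial interval 36.9 to 57.9%), against 85.4% of 9097 constant regions (84.7 to 86.1%). Within the 50th to 60th percentile the shares were 20.8% of 448 (17.1 to 24.8%) and 64.7% of 6080 (63.4 to 65.9%), and within the 70th to 80th percentile 14.3% of 581 (11.5 to 17.4%) and 44.2% of 1790 (41.9 to 46.5%). The intervals count regions as independent and cover counting error only, and the rule itself used these libraries, so the gap is described and not tested.

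**Figure D2:**
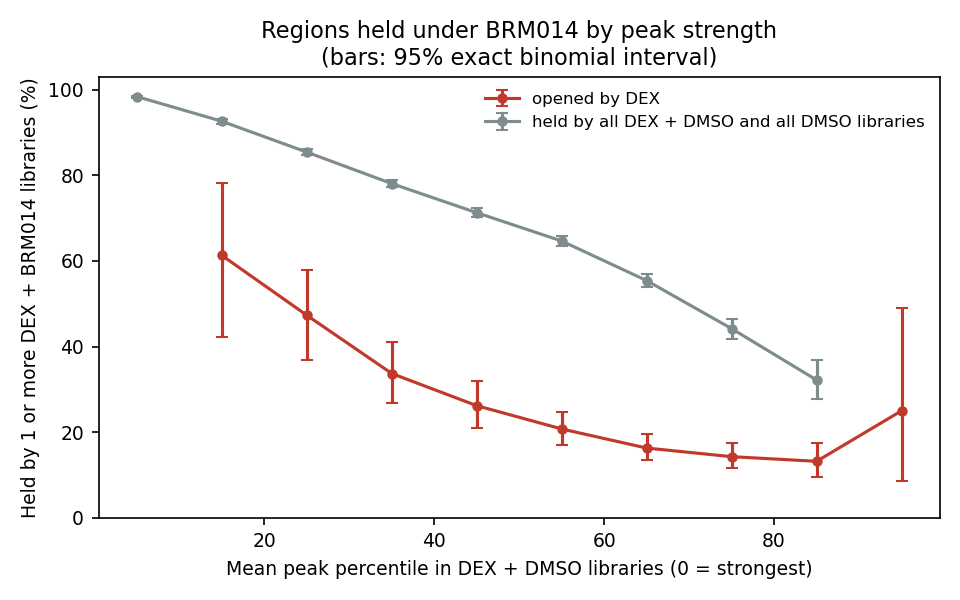
Share of regions held by 1 or more DEX + BRM014 libraries (vertical axis, %) against mean peak percentile in the DEX + DMSO libraries (horizontal axis, 0 is the strongest), for regions opened by DEX and for constant regions; bins under 20 regions are left out and bars are 95% exact binomial intervals. The line of the opened regions lies below that of the constant ones in every bin that shows both, with 20.8% against 64.7% between the 50th and 60th percentiles.

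The DEX + BRM014 and DEX + DMSO peaks of a persisting region overlap the same merged region by the rule, which limits how far apart they can lie. Their summits were a median of 24.5 bp apart, given here as a description. In DEX + BRM014 replicates 1 to 4, the members that were held had a median fold of 4.87, 5.48, 5.32 and 5.18 and sat at a median percentile of 74.9, 79.7, 79.5 and 82.7 from the top, toward the weak end of each list.

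The 12 members at the top of the ranking, by grade and then by rank among the DEX + BRM014 peaks, were each held by 4 of 4 DEX + BRM014 libraries, and 9 of them were held by 0 of 4 BRM014 libraries. All 12 were held by all 6 DEX libraries at 2 h, and 7 of them by 0 of 6 vehicle libraries, 0 of 4 BRM014, 0 of 4 siBRG1 + siBRM and 0 of 4 siCtl libraries without DEX. First was chr20:53622614-53622926 (hg38), 25.1 kb from ZNF217, which encodes a zinc-finger factor amplified in breast cancer, with folds of 13.05, 20.2, 17.2 and 16.5 in DEX + BRM014 and of 12.02, 10.5, 11.1 and 13.9 in DEX + DMSO replicates 1 to 4. It was held by none of the BRM014, vehicle or DMSO libraries. Another 2 opened regions within 50 kb of ZNF217 were blocked.

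The second was chr11:102320799-102320957, inside BIRC3, an inhibitor of apoptosis in the NF-kB pathway, with folds of 12.97, 13.95, 13.6 and 11.99 in DEX + BRM014 and of 5.41, 5.61, 7.63 and 7.79 in DEX + DMSO replicates. The third was chr18:54777269-54777508, inside RAB27B, a GTPase of vesicle secretion, with folds of 11.03, 9.42, 9.23 and 9.53 in DEX + BRM014 and of 3.47, 6.55, 5.13 and 4.10 in DEX + DMSO replicates. At these regions the DEX + BRM014 folds were all above the DEX + DMSO folds, but the fold is relative to each library's own background and the lists differ in length, so no change in accessibility is read from it. LEKR1 (chr3:156906363-156906644, inside the gene) had the opposite order in its mean folds, 13.9 in DEX + BRM014 and 19.4 in DEX + DMSO. The single folds overlapped, with 14.6, 17.3, 12.03 and 11.8 in DEX + BRM014 and 19.95, 21.4, 19.96 and 16.2 in DEX + DMSO replicates.

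CMIP, NFKBIA and ZFR were the 3 of the 12 that inhibitor libraries without DEX also held. The region inside CMIP, which encodes a signaling adaptor, was held by 3 of 4 BRM014 libraries with folds of 7.85, 7.002 and 4.60. The region chr14:35400237-35400494, 1.19 kb from NFKBIA, the inhibitor of NF-kB and a known receptor target, was held by 3 of 4 BRM014 libraries, 3 of 3 siGATA6 vehicle, 2 of 3 siCtl vehicle and 4 of 4 siCtl libraries without DEX. The region 61.6 kb from ZFR, which encodes a zinc-finger RNA-binding protein, was held by all 4 BRM014 libraries with folds of 6.64 to 8.86, and by 4 DEX + BRM014 libraries with folds of 6.98 to 8.94. These 3 regions passed the rule through an absence in the 4 DMSO libraries and were not closed in every condition without DEX. The region nearest to DAB2 was held by 0 BRM014 libraries but by 2 of 3 siGATA6 vehicle, 3 of 3 siCtl vehicle and 1 of 4 siBRG1 + siBRM libraries, and that nearest to VAPA by 1 siGATA6 vehicle library. The other 5 of the 12 lay nearest to VAPA, DAB2, MACROH2A1, LOC124904228 and CDC7, at 81.4, 467, 127 and 289 kb and inside CDC7, the gene of a kinase of replication origins. Their mean folds were 7.95 to 12.6 in DEX + BRM014 and 6.60 to 18.5 in DEX + DMSO.

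Known receptor targets lay near regions of both sets, of which the blocked set is the larger, with 2006 regions against 520. Of 66 targets in 4 lists, 12 (18.2%) had a persisting region within 50 kb and 22 (33.3%) a blocked one, with 7 targets in both counts, 5 with persisting regions only and 15 with blocked regions only, while of all 19974 protein-coding genes 4.46% had a persisting and 11.2% a blocked region within 50 kb. The lists were taken with earlier results of these data known, so these shares describe the lists and support nothing further. FKBP5, an Hsp90 co-chaperone that dampens receptor signaling, had 4 persisting and 5 blocked regions. Its 4 persisting regions were held by 3, 3, 2 and 1 DEX + BRM014 libraries. The region at chr6:35722276-35722845 had folds of 4.50, 5.36 and 5.80 in the 3 DEX + BRM014 replicates that held it, and of 9.30, 10.9, 9.52 and 8.85 in DEX + DMSO replicates. All 4 were held by 6 of 6 DEX libraries at 2 h, and 3 of them by 0 of 6 vehicle libraries.

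ZBTB16, a transcription factor gene, had 2 persisting and 6 blocked regions, TSC22D3, the gene of the leucine-zipper protein GILZ that mediates anti-inflammatory effects, had 0 and 5, and PER1, a circadian repressor, had neither. KLF9, a transcription factor gene of the early receptor response, had 2 of each, and its region at chr9:70438447-70438897, 23.9 kb away, was held by 4 DEX + BRM014 libraries with folds of 6.42, 6.81, 6.53 and 7.11, against 21.96, 23.2, 21.9 and 22.1 in DEX + DMSO replicates. It was the strongest with DEX of the regions held by 4. Among kinase and growth feedback targets, DUSP1, a MAP kinase phosphatase, had 1 persisting and 2 blocked regions, DDIT4, an inhibitor of mTORC1, had 1 and 4, RASD1, a small GTPase, had 1 and 1, and ERRFI1, an inhibitor of EGFR, had 0 and 2. The DUSP1 region, 1.31 kb from the gene, was held by 4 DEX + BRM014 libraries, by 1 BRM014 library and by 2 of 3 vehicle libraries in each siRNA setting. The DDIT4 region was held by 3 DEX + BRM014 libraries and by 6 of 6 DEX and 0 of 6 vehicle libraries at 2 h.

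Regions near SLC38A2, an amino acid transporter, and ZFP36, which encodes the mRNA-decay factor tristetraprolin, were held by 4 of 4 DEX + BRM014 libraries, by 6 of 6 DEX libraries at 2 h and by none of the vehicle, BRM014, siBRG1 + siBRM or siCtl libraries without DEX. RGS2, a regulator of G-protein signaling, had 1 persisting and 0 blocked regions, held by 1 DEX + BRM014 library and by 2 of 3 DEX libraries in each siRNA setting. PIK3R1, the gene of a regulatory subunit of PI3-kinase, had 2 persisting regions and 0 blocked ones, and IL1R2, a decoy receptor of interleukin-1, had 1 and 2; all 3 persisting regions were held by 1 DEX + BRM014 library. Altogether 19 members lay within 50 kb of a target; 18 of them were held by all 6 DEX libraries at 2 h and 11 by 0 of 6 vehicle libraries. Of them, 5 were held by 4 DEX + BRM014 libraries, 4 by 3, 3 by 2 and 7 by 1.

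**Figure D3:**
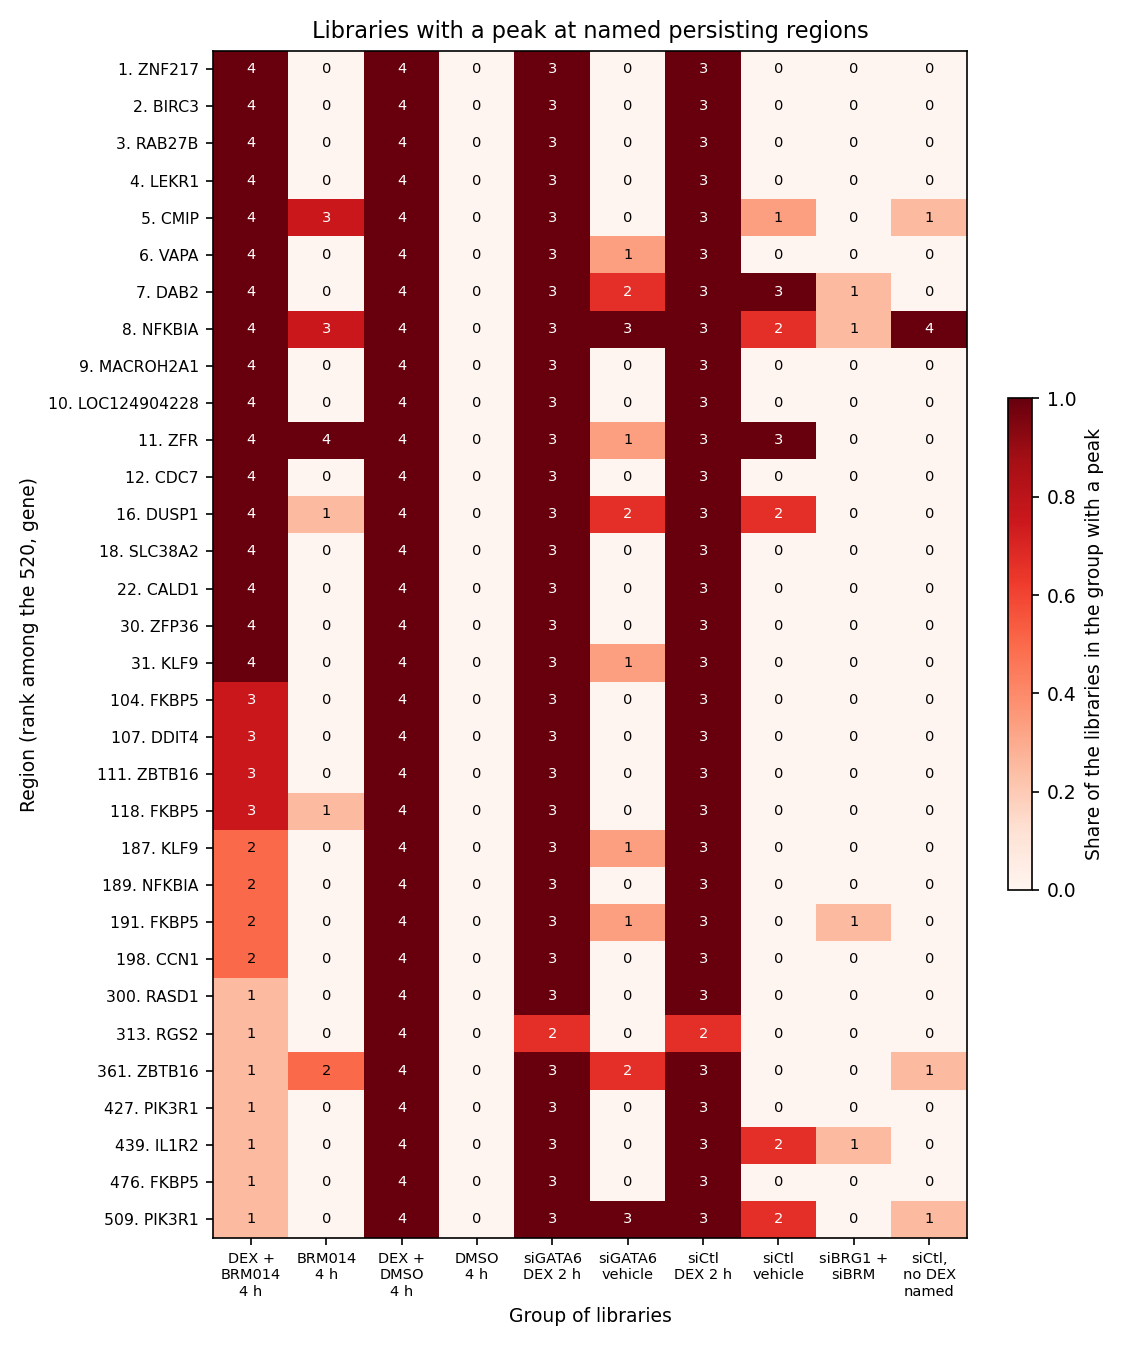
Number of libraries with a peak (printed in each cell, colour gives the share of the group) at the 12 top-ranked persisting regions and at the regions within 50 kb of listed genes, in rows by rank, with groups of libraries in columns. The DEX + DMSO column is full by the rule, and the DEX + BRM014 column holds 1 to 4 libraries. The 2 h DEX columns are full for nearly all rows, the RGS2 region being held by 2 of 3 libraries in each. NFKBIA (rank 8), ZFR and CMIP stand out with peaks in 3 or 4 BRM014 libraries.

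Outside the receptor targets, 2 of 30 mesenchymal and matrix genes had a persisting region within 50 kb, CALD1, which encodes the actin-binding caldesmon, and CCN1, a matrix signaling protein, against 8 of 30 with a blocked region. The CALD1 region was held by 4 DEX + BRM014 and 0 BRM014 libraries. BIRC3 was the 1 of 20 NF-kB and cytokine genes with a persisting region, and 2 of 20 had a blocked one. None of 20 luminal and basal epithelial genes, 13 AP-1 genes, 20 YAP and TEAD targets, 27 SWI/SNF subunits, 24 ribosomal protein genes, 8 leukocyte and 8 endothelial markers had a persisting region. Blocked regions lay near 4 of the 20 epithelial genes, 2 of the 13 AP-1 genes, 5 of the 20 YAP and TEAD targets, 3 of the 27 subunits, 4 of the 24 ribosomal genes and 0 of the 16 leukocyte and endothelial markers. The 4 epithelial genes were CDH1, LAMA3, CDH3 and CAV1, of which CAV1 was also named above among genes active in mesenchymal cells. Of all 19974 protein-coding genes, 4.46% had a persisting and 11.2% a blocked region within 50 kb. Beside these shares, counts of 0 in lists this short are not read as a lack, and no difference between lists was tested.

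Some genes had 3 or more persisting regions within 50 kb. FKBP5 had 4 within 50 kb and 15 other genes had 3, many of which are neighbours that share the same regions, as ARMC12 does with FKBP5. ATG7, an autophagy gene, and LPP, which encodes a focal adhesion protein, had 3 each, at most 2 and 1 DEX + BRM014 libraries holding any of them. UAP1 and DDR2, the gene of a collagen receptor kinase, shared 3 regions held by 4, 3 and 2 DEX + BRM014 libraries with 0 blocked regions, and PMF1, BGLAP, PAQR6, GLMP, SLC25A44, SMG5 and TMEM79 shared 3 held by 3, 3 and 1, again with 0 blocked. The regions nearest to PAQR6 held by 3 DEX + BRM014 libraries, chr1:156247026-156247228 and chr1:156247337-156247517, were held by 6 of 6 DEX and 6 of 6 vehicle libraries of the 2 h experiment. RAB3IL1 had 3 regions held by 4, 3 and 1 libraries, and SLC2A14, which encodes a glucose transporter, had 3 held by 4, 3 and 1. The next region opened by DEX lay within 10 kb of 14.2% of persisting and 12.3% of blocked regions.

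Most persisting regions were distal. Of 520, 458 (88.1%, 95% exact binomial interval 85.0 to 90.7%) had their summit over 1000 bp from both ends of every gene, against 92.4% of blocked regions (91.1 to 93.5%), 68.6% of constant and 80.8% of all regions. Regions held by 4 DEX + BRM014 libraries were distal in 81.4% (69.1 to 90.3%) and those held by 1 in 87.8% (83.3 to 91.4%), intervals that overlap. The median distance to the nearest annotated start was 32.7 kb for the 480 persisting regions outside chromosome 8, for which no starts were used, and 62.3 kb for 1841 blocked ones. Persisting regions lay inside a gene in 56.9% and blocked ones in 51.1%. Their median width was 262.5 bp, against 255 bp for blocked regions. By chromosome the persisting share of opened regions was highest on chromosome 19, with 20 of 50 (40%), and lowest on chromosome 21, with 1 of 16 (6.25%).

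The response at 2 h comes from libraries that the rule did not use. Peaks of siGATA6 DEX replicates 1 to 3 held 90.4, 89.8 and 92.5% of the 520 persisting regions, and those of siGATA6 vehicle replicates held 23.1, 22.9 and 28.3%. With siCtl, the DEX replicates held 90.8, 92.3 and 96.5% and the vehicle replicates 24.8, 24.8 and 29.0%. The 6 DEX libraries therefore held 92.1 ± 2.44% and the 6 vehicle libraries 25.5 ± 2.60% (SD, n = 6 each), with no overlap. The difference was 66.6 percentage points (two-sided exact permutation of the DEX label within siRNA settings, p = 0.005, the smallest that 400 arrangements allow; Benjamini-Hochberg adjusted p = 0.03 over 6 tests), and each of the 6 DEX libraries was above each vehicle library. The direction of this difference is partly fixed by the choice of regions that DEX opened at 4 h. The siGATA6 and siCtl effects were 66.2 and 67.0 points, and the difference of −0.83 points did not pass the test (exact permutation p = 0.83, adjusted p = 0.985, smallest possible 0.01). Leaving out a library kept the DEX effect between 58.9 and 67.5 points, all past the threshold. With only the best peaks, the same number in each library of an experiment, it was 19.7 points. With an overlap of at least 50% it was 36.0 points. In that setting the members were chosen by an overlap of 50% of the merged region, and presence at 2 h was scored by 50% of the shorter interval.

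With siCtl, 281 of 520 persisting regions (54.0%) were held by 3 of 3 DEX and 0 of 3 vehicle libraries at 2 h, against 53.7% of blocked and 1.99% of all regions, and with siGATA6 276 (53.1%) were, against 48.5% and 1.92%. In both settings 231 (44.4%) were, against 40.7% of blocked and 1.12% of all regions. At the other end, 45 persisting regions were held by 6 of 6 vehicle libraries, although by 0 of 4 DMSO libraries in the experiment that chose them. The libraries of the 2 h experiment have more peaks, 114113 to 131423. The same count was not made for blocked or for all regions, so this one is a description only.

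The size of the DEX effect at 2 h was not detectably different between persisting and blocked regions. Of the blocked regions, siGATA6 DEX libraries held 86.7 ± 4.42% and siGATA6 vehicle libraries 22.6 ± 3.99%, and siCtl DEX libraries held 88.4 ± 4.60% and siCtl vehicle libraries 19.9 ± 2.22% (SD, n = 3 each). The share of persisting minus that of blocked regions was 4.53 ± 2.53 points in DEX and 4.19 ± 2.39 points in vehicle libraries (SD, n = 6 each), a DEX effect of 0.34 points that did not pass the test (exact permutation p = 0.775, adjusted p = 0.985). This exact permutation test depended on how presence was scored: the effect was −4.04 points with peaks of a −log10 q of at least 5 (adjusted p = 0.045), −12.5 points with equal numbers of best peaks (adjusted p = 0.015) and −13.2 points with an overlap of at least 50% (adjusted p = 0.015). A p that misses the threshold does not show that the sets respond equally. The level itself differed: persisting regions were held more often than blocked ones in 12 of 12 libraries of the 2 h experiment.

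The DEX effect at 2 h did not follow the grade in 1 direction. Of regions held by 4 DEX + BRM014 libraries, siGATA6 DEX libraries held 98.3 ± 1.69% and siGATA6 vehicle libraries 23.7 ± 2.94%, and siCtl DEX libraries held 98.3 ± 1.69% and siCtl vehicle libraries 23.2 ± 3.53%. Of regions held by 1, siGATA6 DEX libraries held 90.4 ± 1.98% and siGATA6 vehicle libraries 23.5 ± 3.34%, and siCtl DEX libraries held 92.1 ± 4.09% and siCtl vehicle libraries 24.1 ± 4.05% (SD, n = 3 each). In regions held by 4, 3, 2 and 1 DEX + BRM014 libraries the DEX effect was 74.6, 62.6, 62.1 and 66.9 points with siGATA6, and 75.1, 59.1, 65.0 and 68.0 points with siCtl. Regions held by 3 thus had a smaller effect than those held by 1 in both settings and regions held by 4 a larger one, and these differences between single grades were not tested. The DEX effect of regions held by 3 or 4 together minus that of regions held by 1 was 0.02 points (exact permutation p = 0.985, adjusted p = 0.985). This value depended on how the members were chosen. Without DEX + DMSO replicate 2 or 3 it was 3.73 and 4.23 points (exact permutation, adjusted p = 0.045 each). With windows at summits it was −5.60 points (exact permutation, adjusted p = 0.015), so its direction also changed. Without DEX + BRM014 replicate 1, 2 or 3 the contrast itself was another one. The upper grade was then 3 of 3 libraries, with 63, 63 and 79 regions. That contrast was 6.66, 7.33 and 4.03 points (exact permutation, adjusted p = 0.015, 0.015 and 0.045).

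**Figure D4:**
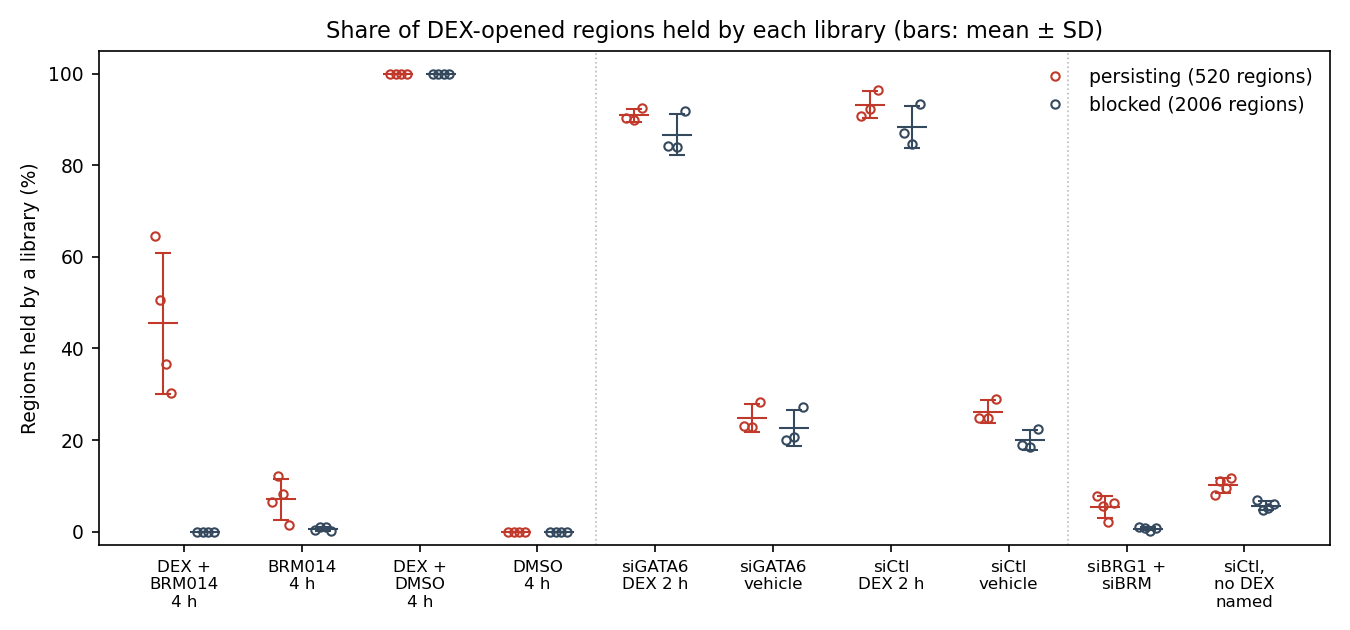
Share of the 520 persisting and 2006 blocked regions held by each library (vertical axis, %), with mean ± SD, by group; the first 4 groups are the experiment of the rule, in which 100% and 0% are fixed by the choice. In the 2 h experiment the DEX libraries lie between 83.9 and 96.5% and the vehicle libraries between 18.4 and 29.0%, and in the last experiment the siBRG1 + siBRM libraries lie at 7.69% or lower.

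Without DEX, BRM014 libraries had peaks at some persisting regions, and no gain by the inhibitor is read from this. BRM014 replicates 1 to 4 held 6.54, 12.1, 8.27 and 1.35% of persisting regions (mean 7.07 ± 4.47% SD, n = 4) and 0.45, 1.00, 1.00 and 0.15% of blocked regions (mean 0.65 ± 0.42%), while DMSO libraries held 0% of both by the rule. Libraries of the other experiments with neither inhibitor nor DEX named held more of the persisting regions. The averages were 10.1% in siCtl libraries of the siBRG1 + siBRM experiment, 26.2% in siCtl vehicle and 24.7% in siGATA6 vehicle libraries. Of all regions, BRM014 libraries held 26.7% on average. With equal numbers of best peaks, BRM014 libraries held on average 20.2% of the persisting regions chosen in that way. The BRM014 replicate with the lowest share, number 4, also had the fewest peaks, 41026. Of the persisting regions, 91 (17.5%) were held by at least 1 BRM014 library, against 46 of 2006 blocked ones (2.29%), and 4 by all 4, against 0.0321% of all regions held by 4 of 4 BRM014 and 0 of 4 DMSO libraries. The share was higher at higher grades, with 14.4 ± 6.27% of regions held by 4 DEX + BRM014 libraries, 14.02 ± 8.05% by 3, 6.84 ± 5.36% by 2 and 3.96 ± 3.04% by 1 (SD, n = 4 each). The spread between BRM014 libraries is as large as the difference between neighbouring grades. The split into persisting and blocked regions and the grades come from peaks called under the same inhibitor. Higher BRM014 shares in persisting regions and at higher grades are therefore partly fixed by the choice of regions. Of the 59 regions held by 4 DEX + BRM014 libraries, 45 were held by 0 of 4 BRM014 libraries and so were opened by DEX in every replicate under the inhibitor, against 0.170% of all regions; the rule chose these 59, so nothing is read from that count.

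Peaks at persisting regions were fewer when both ATPases were depleted, but the call did not survive adjustment. The siBRG1 + siBRM replicates 1 to 4 held 7.69, 5.58, 2.12 and 6.15% of persisting regions and the siCtl replicates without DEX 8.08, 10.96, 9.62 and 11.7%. The means were 5.38 ± 2.36% and 10.1 ± 1.61% (SD, n = 4 each), a difference of −4.71 points (exact permutation p = 0.0286, the smallest that 70 arrangements allow; adjusted p = 0.0857). All 4 siBRG1 + siBRM libraries were below all 4 siCtl libraries. With the same number of best peaks in each library, 37184, the direction turned to 10.3 points higher in siBRG1 + siBRM (exact permutation, adjusted p = 0.0429). The part of the lower number of peaks in the lower share was not tested further. Only 1 of 520 persisting regions (0.19%) was held by 0 of 4 siBRG1 + siBRM and 4 of 4 siCtl libraries. The same was true of 10 of 2006 blocked regions (0.50%) and of 4.42% of all regions. Only 4 persisting regions were held by 4 of 4 siCtl libraries, so few could meet this call and nothing is read from the gap to all regions. The reverse, 4 of 4 siBRG1 + siBRM and 0 of 4 siCtl libraries, was met by 0 persisting and 0 blocked regions, against 0.0168% of all regions.

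The siBRG1 + siBRM share was 0.533 times the siCtl share at persisting regions, 0.116 times at blocked regions, 0.706 times at constant regions and 0.586 times over all regions. In points, persisting minus blocked was 4.72 ± 2.01 in siBRG1 + siBRM and 4.40 ± 2.26 in siCtl libraries (SD, n = 4 each), and the difference of 0.32 points did not pass the test (exact permutation p = 0.771, adjusted p = 0.985); with equal numbers of best peaks it was 15.7 points (exact permutation, adjusted p = 0.0429). The blocked share averaged 5.70% in siCtl and 0.66% in siBRG1 + siBRM libraries, so blocked regions had little more to lose. The test in points therefore cannot decide whether the sets differ in their loss. The sets were split by libraries in which the same ATPases were inhibited, which may partly fix the order of these shares. Of regions held by 3 or 4 DEX + BRM014 libraries, siBRG1 + siBRM libraries held 9.0 ± 2.48% and siCtl libraries 12.8 ± 2.36% (SD, n = 4 each).

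**Figure D5:**
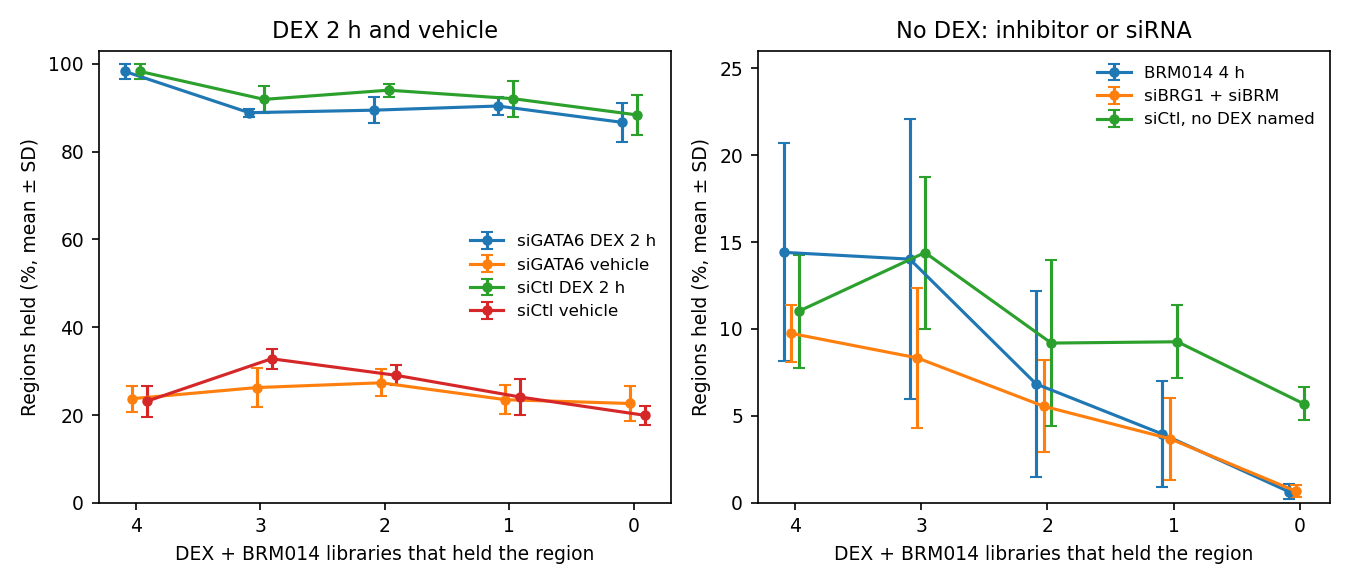
Share of regions held (vertical axes, %, mean ± SD over 3 or 4 libraries) against the number of DEX + BRM014 libraries that held them, for the 2 h groups (left) and the groups without DEX (right, on a smaller scale). At 2 h the DEX lines lie at 98.3% for regions held by 4 and at 86.7 and 88.4% for those held by 0, while in BRM014 libraries the share is 14.4% at 4 and 0.65% at 0.

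Across the 24 libraries in which presence was not part of the rule, persisting regions were held more often than blocked ones in 24, by 0.73 to 11.1 points. Among these are the 4 BRM014 libraries, whose peaks entered the merge. They share the inhibitor with the libraries that split the sets, so their order is partly fixed. Set by set of like strength with DEX, the order was the same in most groups. In the strongest tertile of opened regions by percentile, BRM014 libraries held 3.00 ± 2.39% of 250 persisting and 0.42 ± 0.51% of 592 blocked regions, and in the weakest tertile 12.6 ± 7.6% of 115 and 1.17 ± 0.69% of 727 (SD, n = 4 each). In siCtl vehicle libraries, the weakest tertile held 33.6 ± 2.19% of persisting and 22.1 ± 2.42% of blocked regions, whereas in the strongest tertile the shares were 18% ± 0.40 and 16.8 ± 1.48% (SD, n = 3 each). In siGATA6 vehicle libraries the strongest tertile went the other way, with 17.3 ± 2.44% of persisting and 19.4 ± 4.50% of blocked regions, as did the middle tertile in siGATA6 DEX libraries, with 87.5 ± 2.61% and 87.8 ± 4.41% (SD, n = 3 each). Of all 520, 248 (47.7%) were held by no library outside the DEX groups in any experiment, against 1174 of 2006 blocked regions (58.5%). The share over all regions was not counted, and nothing is read from these counts.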

How the data were processed

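The data were 36 ATAC-seq peak lists of BT549 cells, made by the authors separately for every library without pooling. The tools named by the submitters' processing notes are bcl2fastq, SAMtools, MACS2 and HOMER, with GRCh38 (hg38) as build; aligner, read shifting, duplicate handling and caller settings: not given in the sources used here. Every deposited peak carries the authors' score, their fold ratio of summit signal to background, and their −log10 p and −log10 q values, of which the lowest −log10 q was 1.30. Depth is unknown, because a peak list has no read counts, and a thinly covered region can be open and lack a peak.

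Duplicate peak lines were dropped, chromosomes 1 to 22 and X were kept, and peaks were merged with Python 3.11.15, NumPy 2.4.6 and pandas 2.3.3. Shares of regions held were compared by two-sided exact permutation over libraries, adjusted by Benjamini-Hochberg over 6 tests; such p-values reflect the spread between numbered biological replicates. Scripts were tested on simulated data. The members, gene lists and tests were chosen with earlier results of these data known. By rule, the text names the 12 members of highest grade and best rank, members near listed genes (for receptor targets up to 14 beyond the first 12; PIK3R1 and IL1R2 were added after their values were seen), genes with 3 or more members and 9 fixed loci. A motif search at summits was planned but not run, since only promoter sequences, from a RefSeq table, were used here.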

Additional observations from a re-analysis of the deposited data

How the results depend on the processing

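The DEX effect at 2 h stayed positive and past the threshold in each of 24 fits without a library and in all 4 other ways of scoring peaks, between 19.7 and 67.5 points. The pairing check correlated the deviations of same-numbered libraries from their group means over all regions. The correlations were 0.01 to 0.10 in the 2 h experiment, 1 of 18 pairs being over 0.1, and −0.03 to 0.03 in the siBRG1 + siBRM experiment, against −0.06 to 0.02 and −0.03 to 0.04 for different numbers. In the 2 h experiment 11 of 12 libraries correlated best with their own number, a hint of shared deviations from the data and not the design, and in the other 3 of 8 did. As not every pair was over 0.1 and the labels tie no number to a shared batch, the numbers were not used as pairs. With the replicate block the DEX effect was the same 66.6 points, but the smallest p this block allows is 0.0312 and the adjusted p was 0.188; the block changed no other call.

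Counts moved most with the peaks admitted. Persisting regions numbered 286 with a −log10 q of at least 5, 300 with equal numbers of best peaks (41026 per library in the experiment of the rule), 307 with an overlap of at least 50% and 556 with windows at summits, and were 15.4, 32.7, 13.1 and 21.6% of the opened regions in the same settings. Without a library of the rule they numbered 396 to 652. Their distal share was 83.2, 82 and 82.7% in the first 3 of these settings, 93.5% beyond 500 bp and 67.3% beyond 5000 bp. The median fold with DEX was 8.46, 12.2 and 7.79 in the first 3 settings, and 6.45 to 7.11 without a library of the rule. The share held with BRM014 alone was 20.2% with equal numbers of best peaks. Receptor targets with a persisting region numbered 6 with a −log10 q of at least 5, 4 with an overlap of at least 50% and 7 within 10 kb, against 12.

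Tests that passed no threshold also changed direction. The siRNA by DEX interaction was 1.17 points with a −log10 q of at least 5, 2 with equal numbers and 2.50 with an overlap of at least 50%, and −2.24 to 0.93 without a library. The DEX effect of persisting minus blocked regions was −4.04, −12.5 and −13.2 points in these settings, each past the threshold, −1.32 with windows at summits, and −1.94 to 1.26 without a library. The DEX effect of regions held by 3 or 4 minus those held by 1 was −2.40 with equal numbers, −5.60 with windows at summits, and −1.85 to 7.33 without a library. Where the library left out was a DEX + BRM014 one, the upper grade was 3 of 3 libraries, so those values are of another contrast. The siBRG1 + siBRM difference was 10.3 points with equal numbers, and −7.63 to −3.62 without a library. Its persisting minus blocked value was −0.67 with a −log10 q of at least 5, 15.7 with equal numbers, and −0.74 to 1.26 without a library. The cause was not tested. In equal-number settings the weakest peaks of the longer lists are dropped by construction. No library share or median fold of the 41 groups checked lay apart from its group by Dixon's test. The check needed at least 4 libraries, so the groups of 3 libraries in the 2 h experiment were not checked.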
